A study of Apis mellifera with 79 samples.

Results

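The genes described here are 150 genes that were higher in the brains of nurses than in those of foragers, in both a field study and an apiary study of the honey bee (Apis mellifera). They were selected on measured values from 9904 genes that could be ranked, out of 10714 genes in all 4 expression tables and 11525 genes in any of them. Expression was measured by RNA sequencing and is given as log2 CPM, the reads of a gene relative to the library total on a log2 scale. A gene was ranked if its mean log2 CPM was at least 1 in both castes of the apiary study. Each library was centred on its median gene, the nurse mean minus the forager mean was taken in the unexposed libraries of each study, and the genes were ordered by the smaller of both differences. The caste difference in unexposed bees is therefore what chose the genes, and it is given below as a description without a test.

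Nurses and foragers are worker bees in different stages of adult life. Nurses stay in the hive and feed the brood, and foragers, usually older, leave it to collect nectar and pollen. The change from nursing to foraging is accompanied by changes in gland activity, hormone levels and brain gene expression. Clothianidin is a neonicotinoid insecticide, a class of compounds that act on the nicotinic acetylcholine receptors of insect neurons.

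There were 79 libraries of worker brains in 8 groups. In the apiary study each library was a single brain, with 15 exposed and 15 unexposed bees of each caste and 5 bees per caste and colony. The exposed bees came from colonies C21, C23 and C28, which were fed pollen patties containing clothianidin, at 4.9 ppb to begin with and lowered to 2.0 ppb. The unexposed bees came from colonies C25, C26 and C27 in the same apiary, whose patties had none. All were sampled on day 30 of feeding, from colonies that had a queen. In the field study each library was a pool of 5 brains of a single caste and colony, with 5 exposed forager pools and 5 exposed nurse pools from colonies beside neonicotinoid-treated corn (2J1 to 2J5), where pollen held clothianidin and thiamethoxam. The unexposed pools, 5 of foragers and 4 of nurses, came from colonies at least 3 km from farmland (1J7, 1J9, 2J6, 2J7 and 2J10, of which 1J9 had no nurse pool). In the field, foragers were taken when they came back carrying pollen and nurses when they had the head in a brood cell. The hypopharyngeal gland, the head gland in which nurses make brood food, and the ocelli had been dissected away from the brains. Exposed and unexposed field colonies stood at a single site each, and the effects of exposure and of the site cannot be told apart. Strain and age of the bees were not given in the sources used here. Libraries held 10.5 to 45.1 M reads in genes, with a median of 26.4 M.

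The tables identify genes only by GB numbers, and the reference table used here matched 0 of the 11525 identifiers to a gene name. The text document of the study's supplement pairs 16 identifiers with names, all of transcription factors, and 0 of these were members. Names in the separate supplementary spreadsheets were not part of this count. The members are therefore named by identifier, no role is given for any of them, and the tissue label was not checked against marker genes. Because whole brains were sequenced, fewer cells of a type and less RNA per cell cannot be told apart in any of the differences below.

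In the unexposed libraries, the difference that selected the genes had a median over the 150 members of 0.74 log2 in the apiary and of 0.82 in the field, against -0.01 and -0.00 over the genes ranked. The apiary difference was the smaller one for 87 members. The last gene inside the list was GB53677, with a smaller difference of 0.4435, and the first gene outside was GB40013, with 0.4432, so the end of the list marks no step in the values. A step did occur near its top. The ninth member stood at 2.61 and the member after it at 1.48, a gap of 1.13. The 9 members above this gap, singled out after their values were seen, were GB55204, GB45796, GB55206, GB55211, GB55212, GB55213, GB43738, GB55205 and GB40608. Of these, 6 have identifiers between GB55204 and GB55213, and GB55208 and GB55209 from the same run of numbers were members further down. In all, 12 runs of neighbouring identifiers occurred in the list. Whether genes of a run share sequence, and so reads, was not tested.

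Members took fewer reads than most genes, on a scale that does not take gene length into account. Their mean log2 CPM over all libraries had a median of 3.70 and ranged from 1.13 to 11.45, against a median of 5.42 over the genes ranked, and 34 of the 150 lay above that median. No member was without reads in any library. The 9 first members ranged from 3.08 to 9.69.

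The caste difference was then tested in the exposed libraries, whose caste differences were not used to rank the genes. The exposed apiary bees did count in the mean log2 CPM that decided which genes could be ranked. Reads of both castes were brought to a joint TMM scale (a scaling by the trimmed mean of log ratios between libraries) and compared with limma, and a gene counted as called when its p-value, adjusted by the method of Benjamini and Hochberg for all genes of the fit, was below 0.05. In exposed apiary bees (15 nurses and 15 foragers), 125 of the 150 members were higher in nurses, where 24.8% of the 11151 genes tested were higher. No member was lower in nurses at this threshold or at an unadjusted p below 0.05 (limma), against 22.6% of all genes at the threshold. The nurse mean was above the forager mean for 146 members, against 50% of all genes, and the median difference was 0.88 log2, against 0.0002 over all genes. The p-values measure the spread between these bees, and bees of the same colony shared a hive. With each colony reduced to its mean, which leaves 3 against 3, 96 members were called higher in nurses, against 10.3% of all genes, and 146 remained above 0. Without colony C28, 84 members were called, against 12.6% of all genes.

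GB55204, first in the ranking, was between 1.42 and 11.54 log2 CPM in exposed apiary foragers, with a median of 3.55, and between 2.48 and 12.27 in exposed apiary nurses, with a median of 9.48. The castes overlapped widely, and the highest forager, C21-F3, was above 12 of the 15 nurses. The mean difference was 4.5 ± 1.05 (SE, adjusted p = 0.000948, limma). It was 5.29 in colony C21, 1.66 in C23 and 6.55 in C28, so it was positive in 3 of 3 colonies and smallest in C23.

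GB43738 was between -0.76 and 6.04 log2 CPM in exposed apiary foragers, with a median of 2.06, and between 2.31 and 6.70 in nurses, with a median of 4.56. The same forager, C21-F3, was the highest of its caste. The difference was 2.89 ± 0.54 (SE, adjusted p = 0.000105, limma), and it was more even over colonies than that of GB55204, at 2.76 in C21, 2.62 in C23 and 3.28 in C28. GB40608 was between -0.88 and 5.49 in foragers, with a median of 2.31, and between 1.83 and 7.03 in nurses, with a median of 4.98. Its castes overlapped too, and its difference was 2.49 ± 0.51 (SE, adjusted p = 0.000262, limma).

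All 9 first members were called higher in exposed apiary nurses, with differences from 2.12 to 4.5 log2. Not all of these calls held under the 14 alternative settings described at the end. The call was lost in 4 settings for GB45796, in 3 for GB55213, and in 2 each for GB55211 and GB55212. It was lost in 1 each for GB55204 and GB55205, and held in all for GB55206, GB43738 and GB40608. Colony C23 had the smallest difference for each of them, as low as 0.09 for GB55213 and 0.24 for GB45796. GB55205 took the most reads of the 9, with a median of 7.19 log2 CPM in exposed apiary foragers and 10.42 in nurses. GB55211 had a median of 0.05 in foragers, where its lowest bee had 1 read, and of 5.05 in nurses. The highest exposed forager was C21-F3 for each of the 9.

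**Figure D1:**
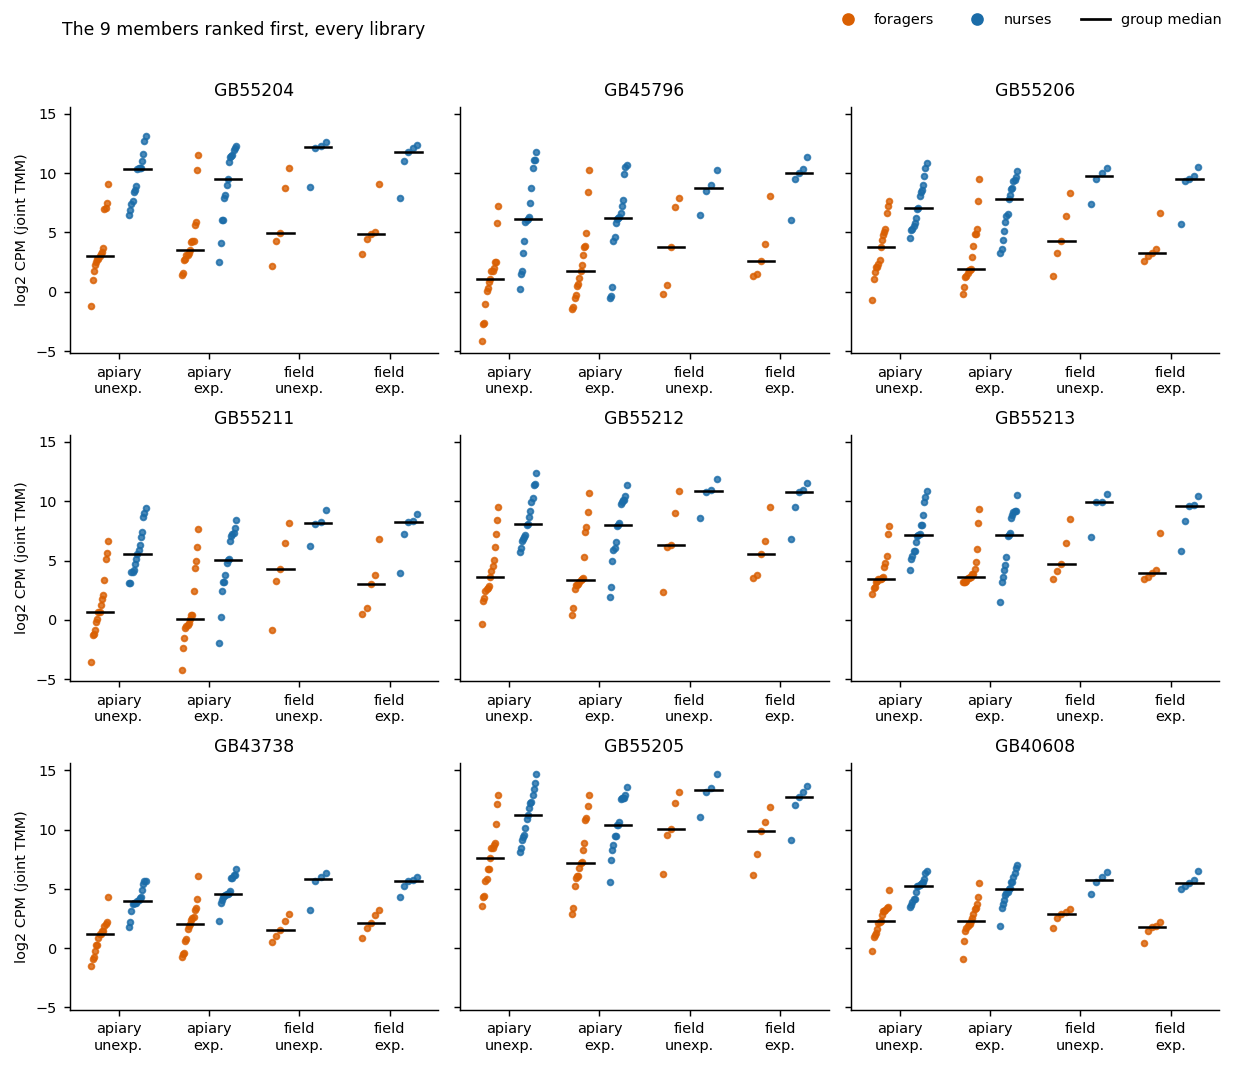
Log2 CPM on the joint scale (vertical axis) of the 9 members ranked first, in every library. Points are single brains in the apiary and pools of 5 brains in the field, ordered by value within each group, in orange for foragers and blue for nurses, and black bars are group medians. Nurse medians lie above forager medians in all 4 pairs of groups, and in apiary bees the castes overlap.

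In exposed field pools (5 of each caste), 111 of the 150 members were called higher in nurses, where 9.93% of the 10734 genes tested were higher. No member was lower at the threshold or at an unadjusted p below 0.05 (limma), against 7.88% of all genes at the threshold. The nurse mean was above the forager mean for 147 members, against 51.1% of all genes, and the median difference was 0.86 log2, against 0.01 over all genes. The count fell to 66 without colony 2J4, where 2.98% of all genes were called, and to 71 without colony 2J5, where 2.61% were.

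GB55204 stood at 9.05, 5.06, 4.89, 3.19 and 4.49 log2 CPM in the exposed forager pools of 2J1 to 2J5, in that order, and at 11.74, 12.37, 12.08, 11.01 and 7.88 in the nurse pools. The forager pool of 2J1 was high and the nurse pool of 2J5 low, so the castes overlapped, while within each colony the nurses were higher. The difference was 5.68 ± 1.07 (SE, adjusted p = 0.0063, limma). GB40608 stood at 1.89, 1.80, 2.24, 1.41 and 0.40 in the forager pools and at 5.00, 5.23, 5.77, 6.47 and 5.47 in the nurse pools. All nurse pools were above all forager pools, and the difference was 4.04 ± 0.35 (SE, adjusted p = 0.000124, limma).

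The 2J1 forager pool was also the highest forager pool for GB45796, GB55206, GB55211, GB55212, GB55213 and GB55205, and the 2J5 nurse pool was the lowest nurse pool for the same genes. For GB43738 the 2J5 nurse pool was again the lowest but the 2J1 forager pool was not the highest, and for GB40608 neither held. The castes did not overlap in these last 2 genes. Of the 9, 8 were called higher in exposed field nurses. The exception was GB55205, with a difference of 2.83 ± 1.09 (SE, adjusted p = 0.0956, limma) that was positive in 5 of 5 colonies. Among the 12 alternative settings for the field, the call was lost in 3 each for GB55211 and GB55212. It was lost in 2 each for GB45796 and GB55213, and held in all for GB55204, GB55206, GB43738 and GB40608.

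GB44002, further down at rank 36, had one of the largest differences in exposed field pools. Its forager pools of 2J1 to 2J5 were at 1.07, 2.12, 1.73, 1.89 and 2.06 log2 CPM, and its nurse pools at 1.57, 9.32, 8.39, 8.94 and 8.72. The nurse pool of 2J1 was at the level of the foragers and the other 4 were far above them. The difference was 5.61 ± 1.23 (SE, adjusted p = 0.0122, limma), and the call was lost in 4 of the 12 alternative settings. In single exposed apiary bees GB44002 was between 1.02 and 3.19 in foragers, with a median of 1.45, and between 0.98 and 10.60 in nurses, with a median of 2.03. Most nurses were at the level of foragers and a few were far higher, with nurse C23-N2 the highest, and the difference was 2.30 ± 0.89 (SE, adjusted p = 0.033, limma).

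The apiary and field fits share no library or colony. Of the 150 members, 100 were called higher in nurses in both, where 4.88% of the 10714 genes in both fits were. A further 25 were called in the apiary alone, 11 in the field alone and 14 in neither. Across the 150 members, the exposed apiary difference and the exposed field difference had a Pearson r of 0.83, and across the 141 members below the first 9 an r of 0.60, where the genes of a library share its depth and composition. By rank, the median exposed difference was 1.27 in the apiary and 1.32 in the field for ranks 10 to 50, 0.88 and 0.85 for the 50 members after these, and 0.64 and 0.64 for the last 50. The calls did not thin out with rank in the apiary, where 34 of 41, 39 of 50 and 43 of 50 members of these blocks were called, against 34, 37 and 32 in the field. Median standard errors of the 3 blocks were 0.29, 0.21 and 0.17 in the apiary, so the later members differed less and also varied less.

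**Figure D2:**
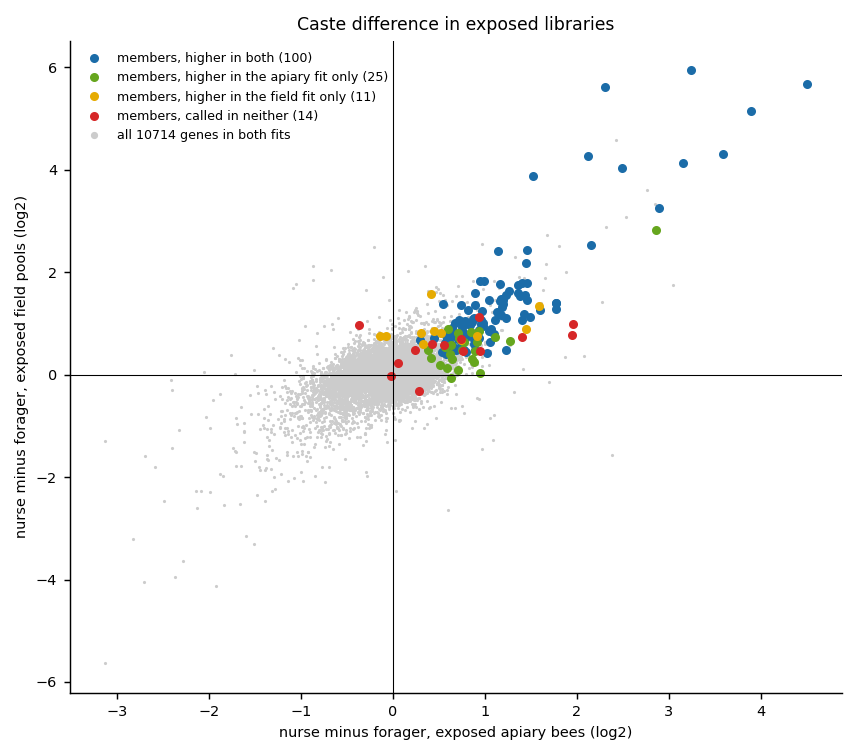
Nurse minus forager difference (log2) in exposed apiary bees (horizontal axis) and in exposed field pools (vertical axis). Grey dots are the 10714 genes in both fits and coloured points the 150 members, by the fits in which they were called higher in nurses. The 100 members called in both lie in the upper right, and the 14 called in neither are drawn in red.

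Few members ran against the list. GB55921 had the lowest difference in exposed apiary bees, -0.37 ± 0.56 (SE, adjusted p = 0.61, limma), with foragers between 1.72 and 4.98 log2 CPM and nurses between -1.91 and 5.73. Its nurses spread more widely than its foragers, and the lowest of them was C23-N2. GB43916 had the lowest difference in exposed field pools, -0.31 ± 0.46 (SE, adjusted p = 0.666, limma). Its forager pools of 2J1 to 2J5 were at 2.11, 3.79, 2.29, 2.11 and 0.83, and its nurse pools at 1.95, 2.04, 2.49, 2.12 and 0.96. The forager pool of 2J2 was high, and the other pools of both castes overlapped.

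Within single colonies the direction was nearly uniform. Nurses had the higher mean for 133 of the 150 members in C21, 149 in C23 and 146 in C28, where between 51.5% and 55.1% of the 10714 genes were higher in nurses. In the exposed field colonies the counts ran from 139 in 2J2 to 142 in 2J3, 2J4 and 2J5, against 49.0% to 52.1% of all genes. The nurse value was higher in every exposed apiary colony for 131 members, against 33.7% of all genes, and in every exposed field colony for 116, against 15.6%. In the unexposed colonies, which chose the list, the corresponding counts were 134, against 27.2%, and 118, against 8.15%.

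Complete separation of the castes was common among pools and rare among single bees. In exposed field pools, every nurse pool was above every forager pool for 78 of the 150 members, against 7.42% of all genes. In exposed apiary bees this held for 0 members, against 0.112% of all genes. In the unexposed libraries it held for 73 members in the field, against 2.73%, and for 1 member in the apiary, against 0.224%. The field groups hold 4 or 5 pools of 5 brains each and the apiary groups 15 single brains, so these counts cannot be compared between the studies.

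The 150 members were also summarised in each library as a level, the mean over members of log2 CPM minus the median gene of that library. The first 9 and the other 141 members were kept apart, since their spreads differed. For the other 141, the level of exposed apiary foragers was between -2.06 and -0.74, with a median of -1.72, and that of exposed nurses between -1.37 and -0.25, with a median of -0.70. Of the 15 nurses, 10 were above all foragers. The 5 others were within the range of the foragers, of which 3 were above the lowest nurse, with C21-F3 the highest at -0.74. The mean difference was 0.86, with a SD over bees of 0.36 in nurses and 0.33 in foragers. It was 0.63 in C21, 0.96 in C23 and 0.99 in C28.

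In exposed field pools, the level of the other 141 members was between -1.58 and -1.27 in foragers and between -0.52 and -0.27 in nurses. The castes were far apart relative to their spread, with a mean difference of 0.98 and a SD over pools of 0.13 in foragers and 0.09 in nurses. The unexposed libraries chose the members, so a comparison of their level with that of exposed libraries is not independent of that choice. The mean level of nurses was -0.72 in exposed and -0.75 in unexposed apiary bees. In field nurse pools it was -0.41 and -0.51, with a SD of 0.09 and 0.23. The mean level of foragers was -1.58 in exposed and -1.56 in unexposed apiary bees, and -1.38 and -1.45 in field pools.

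The level of the first 9 members had another shape. It was between -4.32 and 4.06 in exposed apiary foragers, with a median of -2.27, and between -2.57 and 4.30 in exposed nurses, with a median of 1.67. Both castes covered most of the range. Only 1 nurse was above all foragers, 9 foragers were above the lowest nurse, and 2 foragers were above the median nurse. These were C21-F3 at 4.06 and C23-F2 at 2.51. Among nurses, C23-N2 was lowest at -2.57 and C23-N4 next at -2.06. The same nurse C23-N2 had the highest level of all exposed nurses for the other 141 members, at -0.25. In colony C28 all 5 nurses were above all 5 foragers, and in C21 none was.

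**Figure D3:**
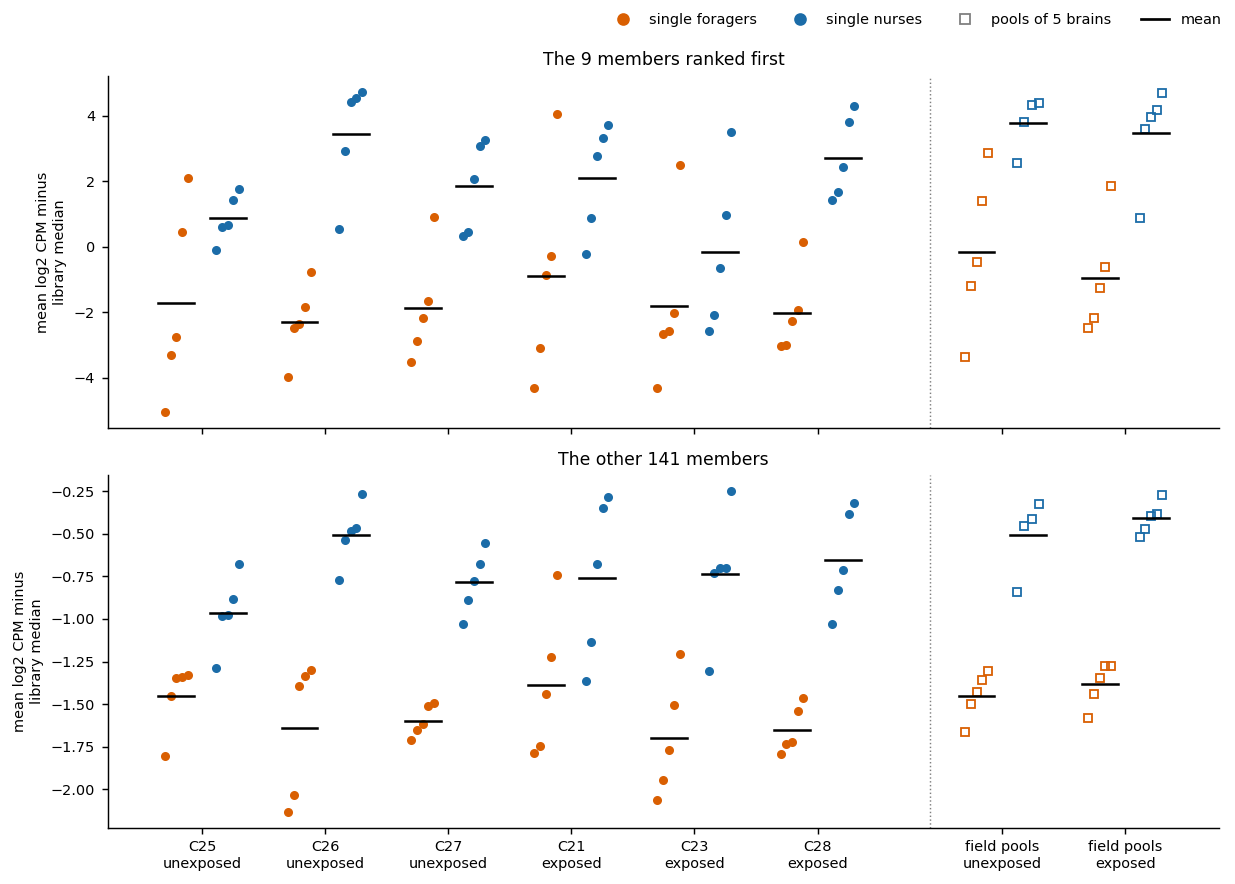
Level of the first 9 members (top) and of the other 141 members (bottom), as mean log2 CPM minus the library median (vertical axes), in each apiary bee by colony (filled circles) and in each field pool (open squares). Orange marks foragers, blue nurses and black bars the means. The first 9 members span -4.32 to 4.06 in exposed apiary foragers alone, and in the other 141 most nurses lie above the foragers of their colony.

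In reads, the first 9 members together took 0.0031% to 1.41% of the reads in genes of exposed apiary foragers, with a median of 0.0181%, and 0.0164% to 2.52% in exposed nurses, with a median of 0.332%. The range over bees of the same caste thus exceeded the distance between the caste medians. In exposed field pools they took a median of 0.110% in foragers and 1.54% in nurses. The highest share was 4.21%, in the unexposed apiary nurse C26-N5. The other 141 members took a median of 0.873% in exposed apiary foragers and 1.73% in exposed nurses, with ranges of 0.699% to 1.49% and 1.16% to 2.62%.

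Spread between single bees was wide for members in general. The SD of log2 CPM among bees of the same colony had a median over members of 0.63 in exposed nurses and 0.55 in exposed foragers, against 0.19 and 0.21 over the genes ranked. In exposed nurses, 148 of the 150 members were above the median gene in this respect. Members were expressed at lower levels than the median gene, and the part of read counting in this spread was not tested. For the first 9 the median SD was 2.37 in exposed nurses and 3.01 in exposed foragers, and for the other 141 it was 0.60 and 0.52. The widest member among exposed nurses was GB44002, with a SD of 3.76, and among exposed foragers GB45796, with 3.58.

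Most of the first 9 members varied together from bee to bee. For the correlations below, the mean of each colony was first subtracted from the values of its bees. Among the 15 exposed nurses, the median Pearson r over their pairs was 0.77, against 0.29 over pairs of the other 141 members and -0.00 over pairs of all genes ranked. The 4 members GB55205, GB55211, GB55212 and GB55213 were closest, with r from 0.96 to 0.99. In these nurses GB43738 stood apart, with r between -0.14 and 0.12 to the 7 members other than GB40608 and of 0.48 to GB40608. GB40608 was loosely tied to the rest, with r from 0.12 to 0.52. In the 15 exposed foragers the median r over pairs of the first 9 was 0.85. There all pairs were positive, those of GB43738 included, with a lowest r of 0.44. In unexposed nurses it was 0.77 with a lower quartile of -0.32, and 61.1% of the pairs were positive. Pairs of a first member with one of the other 141 had a median r of 0.03 in exposed nurses and 0.42 in exposed foragers. These values describe variation between bees within colonies, where bees also share runs, and no test was attached to them. Without nurse C21-N3 the nurse values were 0.81 for the first 9 and 0.33 for the others.

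Differences between colonies were tested with an F test in limma over the 3 colonies of an exposure group, with 5 bees per colony. The p-values thus measure the spread between bees of a colony, and each colony was measured once. The unexposed bees of these tests also chose the members by a high nurse mean or a low forager mean, so the unexposed colony counts and values are not independent of that choice. In nurses the share of members called was below that of all genes. In unexposed nurses, 20 of the 150 members were called, against 20.1% of the 11271 genes tested, and in exposed nurses 6 members, against 14%. The colony means of a member spanned a median of 0.61 log2 in unexposed nurses and 0.49 in exposed nurses, against 0.25 and 0.24 over all genes. In unexposed foragers 0 members were called, against 0.492% of all genes, and 17 members had an unadjusted p below 0.05, against 9.09%. In exposed foragers 1 member was called, against 0.518%.

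Among unexposed nurses, C26 had the highest mean for 18 of the 20 called members and C25 the lowest for 18. GB40823 had the lowest adjusted p, 0.00309 (limma). The C25 nurses were at 4.37, 4.03, 4.27, 3.97 and 4.05 log2 CPM, the C26 nurses at 5.51, 5.67, 4.41, 5.47 and 5.40, and the C27 nurses at 3.78, 5.07, 4.45, 3.89 and 4.06. C26 was high with the exception of 1 bee, and C27 overlapped both. GB45796, from the first 9, was at 1.60, 3.28, 4.32, 0.39 and 1.81 in C25, at 8.78, 7.52, 11.07, 11.81 and 6.13 in C26, and at 6.30, 5.93, 6.06, 11.09 and 10.45 in C27 (adjusted p = 0.01, limma). All C25 nurses were below all nurses of the other 2 colonies. GB43738 was the other of the 9 that was called, with an adjusted p of 0.0385 (limma) and colony means of 3.98, 5.16 and 3.05 in C25, C26 and C27.

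These counts rest on few bees. Without nurse C25-N4, 7 members were called between the unexposed nurse colonies, against 5.55% of all genes, and leaving out other single bees gave 11 to 23. In exposed nurses the count was 12 without nurse C21-N3, against 20.6% of all genes, and 0 with the sequencing run as a term, against 5.60%. The sequencing run was inferred from a number in the description of each library, and the lower number is called the first run here. Whether this number marks a sequencing run, and the order in time, were not checked. Of the 15 exposed nurses, 6 were assigned to the first run, all 5 of C28 and C21-N4, so the run term rests on that C21 nurse. GB49384 and GB54507 were called in both sets of nurse colonies. In exposed nurses GB49384 was at 3.66, 2.60, 2.97, 2.18 and 2.66 in C21, at 3.30, 3.24, 2.59, 2.49 and 2.56 in C23, and at 3.6, 3.39, 4.07, 3.36 and 4.04 in C28 (adjusted p = 0.0152, limma). C28 was highest, and C21-N3 alone of the C21 bees reached its range. The member called in exposed foragers was GB49173, at 3.12, 2.92, 3.30, 2.37 and 2.79 in C21, at 1.66, 2.37, 2.29, 2.15 and 1.90 in C23, and at 2.17, 2.28, 2.08, 2.35 and 1.55 in C28 (adjusted p = 0.0222, limma). C21 was high and the other 2 colonies overlapped. Of the 15 exposed foragers, 7 were assigned to the first run, all of them from C23 and C28. Run and colony can thus not be fully told apart for GB49173. With the run as a term, 0 members were called in exposed foragers, where 12 of the 11381 genes were.

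**Figure D4:**
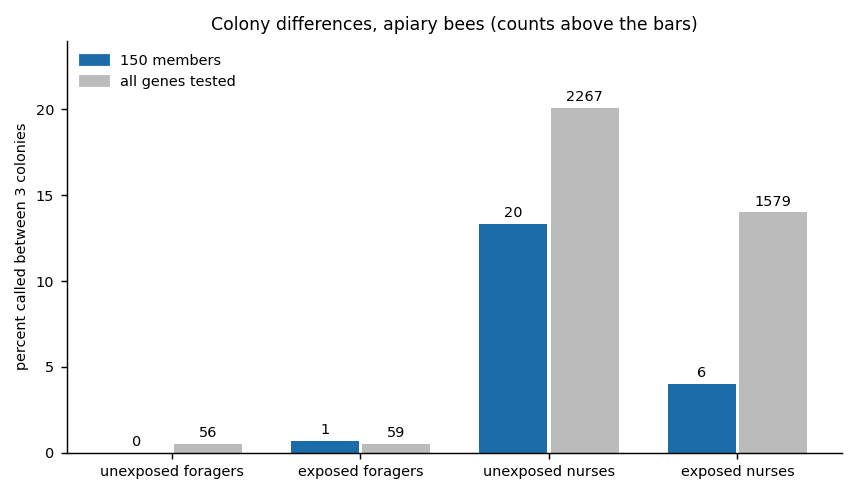
Percent of the 150 members (blue) and of all genes tested (grey) called between the 3 colonies of each apiary group at an adjusted p below 0.05, with the counts above the bars. In nurses, 20 and 6 members were called, smaller shares than over all genes, and in foragers 0 and 1.

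Exposure was compared within each caste table, with limma on log2 CPM. The study itself used edgeR on counts and reported differentially expressed genes in both castes of both studies. A count of 0 here therefore does not show that no gene responded. The unexposed libraries in these comparisons also chose the members, so the member counts are not independent of that choice. In field foragers 0 members were called between exposed and unexposed pools with limma, and 0% of the 10976 genes were. At an unadjusted p below 0.05, 23 members differed, 16 of them higher in exposed pools, against 24.2% of all genes. Without colony 2J1, which held the high forager pool of the first members, the field forager count rose to 14 members, 10 higher and 4 lower in exposed pools, against 26.6% of all genes. In field nurses 0 members were called, and 0% of the 10852 genes were. At an unadjusted p below 0.05, 20 members differed, 18 of them higher in exposed pools, against 4.18% of all genes. That direction rested on a single unexposed pool, since without 2J7 22 members differed and 11 of them were higher in exposed pools, against 8.85% of all genes. The median exposure difference over the members was 0.05 log2 in field foragers and 0.075 in field nurses, against 0.01 and -0.01 over all genes. Neither sign was stable, as the median ran from -0.05 (quantile normalization) to 0.10 over the alternatives in foragers and from -0.06 (without 2J7) to 0.14 in nurses.

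In apiary foragers 0 members were called between clothianidin-fed and unfed bees, against 0.00879% of all 11381 genes. At an unadjusted p below 0.05, 13 members differed, 11 of them higher in exposed foragers, against 9.51%. Without colony C23, GB47046, GB44545 and GB44546 were called, against 0.597% of all genes. In apiary nurses 0 members were called, against 0.0532% of all genes, and 18 differed at an unadjusted p below 0.05, with 9 higher in exposed nurses, against 15.2%. Leaving out colony C21 gave 2 calls, GB47046 and GB50521, against 1.04% of all genes, and leaving out C25 gave 1, GB45536, against 0.115%. The median over members was 0.01 in apiary foragers and 0.06 in apiary nurses, against -0.003 and -0.001 over all genes. It ran from -0.06 (without C21) to 0.04 over the alternatives in foragers and from -0.03 (without C25) to 0.16 (without C26) in nurses. The sequencing run, as inferred from the library descriptions, was uneven between exposed and unexposed apiary bees. The run called first held 7 of 15 exposed and 0 of 15 unexposed foragers, and 6 of 15 exposed and 1 of 15 unexposed nurses. Run and exposure can therefore not be fully told apart. With the run as a term, 0 members were called in either caste, where 6 of all genes were called in foragers and 2 in nurses.

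GB47046 came closest to a call in apiary nurses. Unexposed nurses were between 1.64 and 3.26 log2 CPM, with a median of 2.35, and exposed nurses between 2.59 and 3.96, with a median of 3.26. All exposed nurses were above the unexposed median, and the groups overlapped. The difference was 0.78 ± 0.17 (SE, adjusted p = 0.0581, limma). The same gene was one of the 6 called between exposed nurse colonies, with means of 3.19 in C21, 2.80 in C23 and 3.68 in C28. It was called between exposed and unexposed nurses without C21, without C23 and without C26, and after quantile normalization, with adjusted p from 0.0153 to 0.0471 (limma), and in no other setting tried. With colony means, the unit that was fed, the adjusted p was 1.00, and with the sequencing run as a term it was 0.266.

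None of the first 9 members was called for exposure in any of the 4 comparisons. In apiary nurses the 9 differences ran from -1.13 for GB55211 to 0.82 for GB43738, with standard errors from 0.39 to 1.27. In field foragers GB40608 had the smallest adjusted p of the 9, at 0.12, with a difference of -1.13 ± 0.36 (SE, limma). On the joint scale, unexposed forager pools of GB40608 were between 1.68 and 3.33 log2 CPM and exposed pools between 0.40 and 2.24, and the ranges overlapped. For GB55204 the difference ran from -0.78 ± 1.51 (SE) in field foragers to 0.76 ± 0.97 in apiary foragers, with adjusted p of 0.777 to 0.84 over the 4 comparisons (limma). With standard errors of that size, an exposure difference of 1 log2 in GB55204 was not detectable.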

How the data were processed

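Brain RNA of single apiary bees and of field pools was sequenced. The authors trimmed reads with Trimmomatic 0.36, aligned them to the Amel 4.5 assembly with STAR, filtered genes on CPM, normalized each caste and study separately by TMM in edgeR (R 3.6.3) and deposited log2 CPM. Depth was 10.5 to 45.1 M reads per library. The deposited steps gave whole reads in every library (within 0.1 read, below 20000 reads). For caste comparisons these reads were rescaled jointly by TMM and converted to log2 CPM with a prior count of 0.25; exposure and colonies were compared on deposited log2 CPM within a table, with limma 3.58.1 (mean-variance trend, two-sided, Benjamini-Hochberg over all genes) in R 4.3.3. Descriptions used Python 3.11.15, numpy 2.4.6 and pandas 2.3.3, and figures matplotlib 3.10.9. The fits were tested on simulated data. Colony means, replicate blocks, run terms, other scalings, filters, prior counts, limma's voom and left-out colonies or bees were tried as alternatives. The run was inferred from a number in the library descriptions, with the lower number called the first run.

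The members and all lists were chosen with earlier results of these data known. The genes named came from the 20 ranked first, those at the threshold and those with the largest or smallest caste difference in exposed libraries. A further source was the genes called for exposure or colony. Not every gene of these sets is named, and others are said to be chosen after their values were seen. Gene lists and cell type markers were not applied, because the reference table matched no identifier to a gene name. The 16 identifiers with a name in the supplement's text document are no members. Names in the separate supplementary spreadsheets were not used. No sequence is shown. For 3 columns the name gave the group and colony but not which bee, and they were used as bees of that group.

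Foragers and nurses of the same colony were treated as a pair only in an alternative. Across 10714 genes, deviations of same-colony castes from their group means correlated with r of 0.30, 0.34 and 0.39 in exposed apiary colonies and from 0.09 to 0.39 in exposed field colonies. In unexposed colonies r was 0.24 to 0.49 in the apiary and -0.12 to 0.52 in the field. Between castes of different colonies of an exposure group, r was between -0.30 and -0.08 in the apiary. In the field it reached 0.38 (2J3 foragers with 2J4 nurses, exposed) and 0.50 (2J7 foragers with 2J6 nurses, unexposed). Same-colony values were thus not set apart from the others in the field.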

Additional observations from a re-analysis of the deposited data

Results flagged for a closer look

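In 6 of 68 groups of 4 to 10 libraries tested, the highest or lowest library stood apart from its group by Dixon's criterion at the 95% level, where chance gives about 1 in 20. The level of the first 9 members in the exposed field nurse pool of 2J5 was 0.88, against 3.6 in the next pool. In the same pool GB55206 was at 5.70 log2 CPM, against 9.35 in the next. In the exposed field forager pool of 2J1, GB55206 was at 6.67, against 3.59 in the next pool, and GB55213 at 7.31, against 4.18. In the unexposed field nurse pool of 2J10, GB55204 was at 8.81, against 12.10 in the next pool. The level of the other 141 members was -1.81 in 1 unexposed C25 forager, against -1.45 in the next C25 forager. The causes were not tested.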

How the results depend on the processing

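With colony as replicate block, pairing the castes of a colony, 124 members were called higher in nurses in the exposed apiary bees (25.2% of all genes) and 115 in the exposed field pools (9.07%), and the block changed no count by over 1.5 times. Leaving out 1 colony at a time gave 84 to 123 members in the apiary (12.6% to 22.9% of all genes) and 66 to 107 in the field (2.61% to 14.7%). Of the 125 apiary calls, 72 held under all 14 alternatives, and of the 111 field calls 59 held under all 12. The same count was not made over all genes, so whether calls of members held more often was not tested. For exposure, leaving out a colony gave 0 to 3 members in apiary foragers, 0 to 2 in apiary nurses, 0 to 14 in field foragers and 0 in field nurses (up to 0.597%, 1.39%, 26.6% and 0% of all genes). Quantile normalization gave 1 member in apiary nurses, where 9 of the 11271 genes were called. Between colonies, leaving out a bee gave 7 to 23 members in unexposed nurses (5.55% to 22.1% of all genes), 3 to 12 in exposed nurses (4.84% to 20.6%), 0 to 3 in exposed foragers (0.395% to 1.36%) and 0 in unexposed foragers (0.237% to 0.457%). In exposed foragers, quantile normalization gave 2 members, where 74 of the 11381 genes were called. The sequencing run as a term gave 0 members there, where 12 genes were called, and also 0 in exposed nurses. Over all genes, colony means lowered the apiary caste calls from 5293 to 2146, and the run term lowered the exposed nurse colony calls from 1579 to 631.

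Of the 150 members, 78 stayed among the first 150 when genes needed a mean log2 CPM of at least 3, and 122 to 142 when a colony was left out. With a colony left out, the difference of GB44545 in exposed apiary bees ran from -0.55 to 0.31 and was above 0 without C21. In exposed field pools that of GB43916 ran from -0.44 to 0.044 and that of GB54326 from -0.13 to 0.027, both above 0 without 2J2. Leaving out C21-N3 was chosen after seeing the data. Without it 121 apiary members were called higher in nurses, where 2650 of the 11151 genes tested were. Caste was compared in 3 apiary colonies and 5 field colonies.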
